A study of Mus musculus with 9 samples.

Results

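Complex I, the NADH:ubiquinone oxidoreductase of the inner mitochondrial membrane, was examined through its nuclear-encoded subunit genes in islets in which Ogt, the O-GlcNAc transferase gene, was targeted for deletion in beta cells. The subunits were taken as every gene whose symbol is Nduf followed by a, ab, b, c, s or v and a number, which leaves out the assembly factors (Ndufaf genes). This gave 37 of the 24393 genes analysed, and 36 of them passed the filter on low counts that left 12501 genes for testing. Complex I takes electrons from NADH through a flavin and a chain of iron-sulphur clusters in its matrix arm, passes them to ubiquinone, and pumps protons through its membrane arm. In beta cells the ATP made from this respiration closes potassium channels and so couples glucose metabolism to insulin secretion. The membrane-arm core subunits encoded by mitochondrial DNA were not analysed here, since none of the symbols listed for them was among the genes analysed.

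RNA came from hand-picked pancreatic islets of female mice, which had been cultured overnight at 5 mM glucose. The 4 knockout (KO) libraries carried the genotype Rip-cre; Ogt f/f, in which an insulin promoter drives Cre recombinase, so other islet cells keep the gene. The 5 wild-type (WT) libraries carried floxed Ogt with no Cre named in the labels. WT replicates 1 and 3 were Ogt f/+, and WT replicates 2, 4 and 5 were Ogt f/f, so no control carried Cre alone and the effect of the transgene cannot be told apart from that of the deletion. Run 1 held WT replicates 1 to 3 and KO replicates 1 and 2, and run 3 held WT replicates 4 and 5 and KO replicates 3 and 4. The labels call that later run run 3 in one field and the second in another. They do not say that each library came from a separate mouse, so a p-value here is set against the spread between libraries, which may be technical.

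Total counts per library were 3790984 to 4456205 in run 1 and 5141031 to 6064578 in run 3. Ogt, the deleted gene, stood at 54.1 to 83.0 CPM (counts scaled to a common library size) in WT and 23.7 to 39.3 CPM in KO libraries, with no overlap. Its log2 fold change was -1.30 ± 0.14 (SE, 5 WT and 4 KO libraries, adjusted p = 2.44e-05 by edgeR's quasi-likelihood test). None of the fixed markers of islet and other cell types was at 0 in all libraries. Of 10 beta cell markers 5 fell in KO (50%), against 8.96% of all tested genes. Their median log2 fold change was -0.43, and they summed to 47900 to 110232 CPM in WT and 42845 to 83074 CPM in KO. Of 14 tested acinar markers 4 fell (28.6%, against the same 8.96%). The 16 acinar markers counted summed to 126 to 6109 CPM in WT and 84.9 to 2115 CPM in KO. The acinar difference was not shared by the runs. The median log2 fold change of the 14 was -1.85 within run 1 and 0.18 within run 3. In run 3 the sums were 126 and 142 CPM in WT and 84.9 and 228 CPM in KO. All 6 tested delta and PP cell markers had positive log2 fold changes (median 0.46). They summed to 2986 to 4028 CPM in WT and 3907 to 5510 CPM in KO. All 6 tested fibroblast markers were positive too (median 0.57), with sums of 85.8 to 696 CPM in WT and 181 to 849 CPM in KO. Medians of the other lists were 0.27 (alpha cell), 0.15 (macrophage), 0.08 (endothelial) and -0.27 (duct). In such bulk samples fewer cells of a type and less RNA per cell cannot be told apart. The part of the markers other than acinar in the results on complex I was not tested. Calls in a fit with the acinar level as a covariate are given beside those results.

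The question of the main comparison was which subunit genes differ between KO and WT islets when the sequencing run is a term of the model. The called subunits went in both directions, and whether the complex moved as a group was not tested. Ndufa9 and Ndufs1 rose in KO, Ndufv3, Ndufa8 and Ndufb9 fell, and 31 of 36 tested subunits were not called at an adjusted p under 0.05 (edgeR's quasi-likelihood test, Benjamini-Hochberg over all tested genes). The 5 called subunits are 13.9% of those tested, below the 18.5% called among all tested genes. By direction, 2 of 36 rose against 9.56% of all genes, and 3 of 36 fell against 8.96%. The median log2 fold change was 0.07 over the 36 subunits and 0.02 over all tested genes. The interquartile range was 0.34 over the subunits and 0.47 over all tested genes, and of the subunits 19 had a positive and 17 a negative value.

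Ndufa9, an accessory subunit of the matrix arm that binds NADPH and sits near its junction with the membrane, showed the largest difference of the complex. Its gene lies at chr6:126821721-126849136 on the minus strand (GRCm38). The libraries of run 1 had 49.8, 49.2 and 37.5 CPM (WT replicates 1, 2 and 3) and 69.8 and 66.0 CPM (KO replicates 1 and 2). Those of run 3 had 35.2 and 38.0 CPM (WT replicates 4 and 5) and 59.8 and 58.0 CPM (KO replicates 3 and 4). Every KO library was above every WT library across both runs. The log2 fold change was 0.63 ± 0.10 (SE, adjusted p = 0.000587 by edgeR's quasi-likelihood test). Ndufa9 shares exon bases with the antisense gene 1700018A23Rik, which was not among the tested genes. The sources used here do not state whether reads were counted by strand.

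The start of Ndufa9 also shows a sequence that several subunit genes share. RefSeq start-site windows (GRCm38.p6, 250 bases before to 50 after the start) were found for 33 of the 37 genes. The letters AAGATGGCG, a form of the core bound by the transcription factor YY1, stood in 5 of these 33 windows (15.2%) against 1.49% of 27025 windows of all genes, searched on both strands. In all 5 the ATG within the letters is the annotated start codon, and the first base lies 23 to 36 bases after the start site. The 5 stretches of 21 bases are shown 5′ to 3′ because they carry this shared feature, with the matched letters in capitals.
Ndufa9: tgggagAAGATGGCGgccgcc
Ndufc1: cggaacAAGATGGCGccgtcc
Ndufs7: gaggccAAGATGGCGgcgctg
Ndufs4: tacaggAAGATGGCGgcggtc
Ndufs6: accggcAAGATGGCGgcggtg
They lie at chr6:126849101-126849121 on the minus strand (Ndufa9), chr3:51408919-51408939 on the minus strand (Ndufc1), chr10:80249467-80249487 on the plus strand (Ndufs7), chr13:114388045-114388065 on the minus strand (Ndufs4) and chr13:73328435-73328455 on the minus strand (Ndufs6). Of these 5 genes only Ndufa9 was called, where 18.5% of all tested genes were, and whether the letters bear on the difference was not tested. The log2 fold changes of the other 4 ran from -0.18 for Ndufc1 to 0.13 for Ndufs7. The other letters searched were those of the NRF1 motif, in 1 of 33 windows (Ndufa11) against 0.977% of all. An ETS core (CCGGAAG) was in 12.1% against 9.12%, and an SP1 core (GGGCGGGG) in 18.2% against 17.8%. The median GC content was 59% in the subunits' windows and 52.7% in all windows. A match is a description of these letters, and binding was not measured.

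Ndufs1, the largest core subunit of the matrix arm and a carrier of several iron-sulphur clusters, was the other subunit that rose. Its gene lies at chr1:63143596-63176833 on the minus strand (GRCm38). Run 1 gave 69.9, 70.6 and 70.9 CPM for WT replicates 1, 2 and 3, against 87.7 and 79.8 CPM for KO replicates 1 and 2. Run 3 gave 75.6 and 78.7 CPM for WT replicates 4 and 5, against 86.6 and 93.8 CPM for KO replicates 3 and 4. The KO libraries were again all above the WT libraries, the closest pair being KO replicate 2 and WT replicate 5. The log2 fold change was 0.24 ± 0.08 (SE, adjusted p = 0.0432 by edgeR's quasi-likelihood test), and no fit with 1 library left out kept the call (adjusted p from 0.0532 to 0.135). Ndufs1 shares exon bases on the opposite strand with Eef1b2, a translation elongation factor, whose own log2 fold change was 0.16 (adjusted p = 0.180).

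Ndufv3, the smallest flavoprotein-fraction subunit and an accessory of the NADH-binding tip, showed the largest fall among the called subunits. Its gene lies at chr17:31520115-31531331 on the plus strand (GRCm38). The libraries of run 1 had 115.5, 136 and 114.1 CPM (WT replicates 1, 2 and 3) and 94.7 and 91.3 CPM (KO replicates 1 and 2). Those of run 3 had 83.7 and 72.5 CPM (WT replicates 4 and 5) and 63.3 and 63.1 CPM (KO replicates 3 and 4). Within each run both KO libraries were below all WT libraries, while the KO libraries of run 1 lay above the WT libraries of run 3. The log2 fold change was -0.35 ± 0.08 (SE, adjusted p = 0.00928 by edgeR's quasi-likelihood test). The call held in all 9 fits with 1 library left out.

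Ndufa8, an accessory subunit with cysteine motifs on the intermembrane side of the membrane arm, fell by less. Run 1 gave 43.7, 44.4 and 40.0 CPM for WT replicates 1, 2 and 3, against 39.1 and 31.4 CPM for KO replicates 1 and 2. Run 3 gave 44.1 and 39.2 CPM for WT replicates 4 and 5, against 31.9 and 32.6 CPM for KO replicates 3 and 4. No KO library reached a WT library, although KO replicate 1 came close to WT replicate 5. The log2 fold change was -0.32 ± 0.10 (SE, adjusted p = 0.0434 by edgeR's quasi-likelihood test). The gene lies at chr2:36036326-36049406 on the minus strand (GRCm38) and shares no exon base with another annotated gene.

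Ndufb9, an accessory subunit of the distal membrane arm from the LYR protein family, was the last of the 5. The libraries of run 1 had 149.5, 165.8 and 121.6 CPM (WT replicates 1, 2 and 3) and 115.4 and 106.9 CPM (KO replicates 1 and 2). Those of run 3 had 117.3 and 99.7 CPM (WT replicates 4 and 5) and 92.2 and 99.0 CPM (KO replicates 3 and 4). The groups were separated within each run, in run 3 by less than 1 CPM between WT replicate 5 and KO replicate 4. The log2 fold change was -0.29 ± 0.10 (SE, adjusted p = 0.0494 by edgeR's quasi-likelihood test). The gene lies at chr15:58933756-58939488 on the plus strand (GRCm38) and shares exon bases with Gm49356 on the same strand, which was not among the tested genes.

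**Figure D1:**
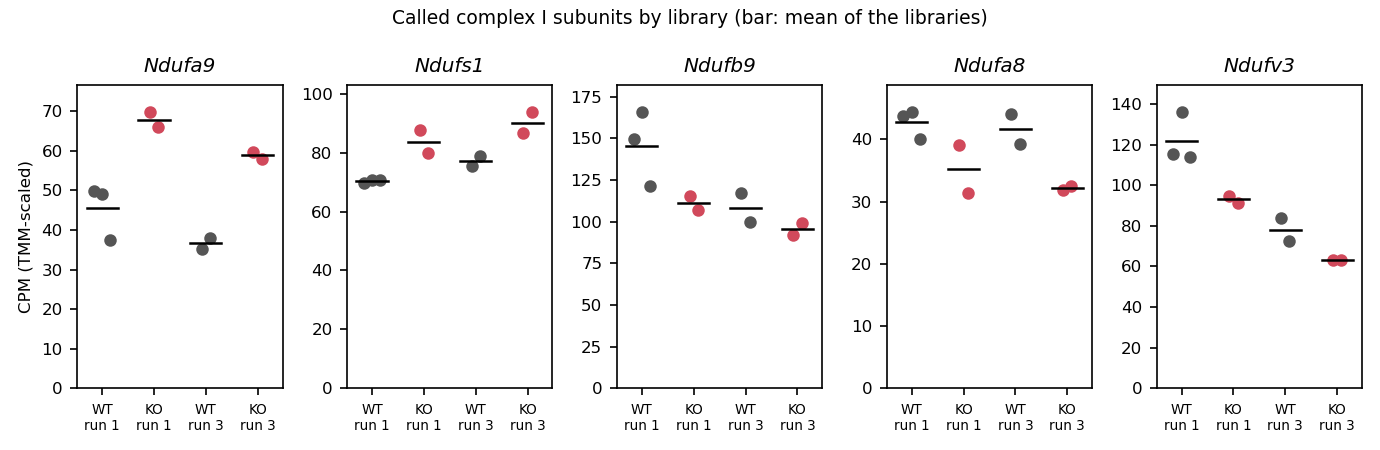
CPM of the 5 called subunits in each library, by genotype and run, with each axis starting at 0, a point per library and a bar at the mean of the libraries. The KO points of Ndufa9 (58.0 to 69.8 CPM) lie above all WT points (35.2 to 49.8 CPM), while those of Ndufb9 in run 3 lie close to WT replicate 5.

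The 5 calls differed in how far they rested on single libraries and on the model. Ndufa9 remained called in 24 of 25 alternative fits, Ndufv3 in 17, Ndufb9 in 8, Ndufa8 in 7 and Ndufs1 in 2, and no alternative turned the direction of any of the 5. With 1 library left out, Ndufa8 kept its call only without WT replicate 3, WT replicate 5 or KO replicate 1, and Ndufb9 only without WT replicate 3 or WT replicate 5. With the mean acinar marker level as a covariate, Ndufa9 alone of the 36 was called. On the authors' FPKM values, as log2(FPKM + 1), Ndufa9 and Ndufs1 were called higher and, of the subunits, Ndufa7 alone was called lower.

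By place in the complex, the called subunits were spread over both arms. The 7 nuclear core subunits are those that bind the flavin, the iron-sulphur clusters and ubiquinone. Of these 7 Ndufs1 rose and none fell (14.3% called, against 18.5% of all tested genes). Their median log2 fold change was 0.12. Ndufv1, which carries the flavin and binds NADH, had a log2 fold change of -0.12 with a 95% interval of -0.38 to 0.14. Ndufs7, which carries the last iron-sulphur cluster, had 0.13 (-0.12 to 0.39). Ndufv2 had -0.17 (-0.36 to 0.03), Ndufs3 0.27 (-0.06 to 0.59) and Ndufs8 0.08 (-0.24 to 0.41).

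Among 9 accessory subunits of the matrix arm Ndufa9 rose and Ndufv3 fell (22.2% called, against 18.5% of all tested genes). Their median was -0.06. Ndufs4, whose loss causes mitochondrial disease in mice and people, had a log2 fold change of 0.08 with a 95% interval of -0.11 to 0.28. Ndufa7 had the lowest value of this arm and was not called (log2 fold change -0.42 ± 0.17 SE, adjusted p = 0.108 by edgeR's quasi-likelihood test). It stood at 20.3, 24.6, 19.1, 19.1 and 13.5 CPM in the 5 WT libraries in order of replicate number, against 18.1, 11.7, 12.6 and 13.5 CPM in KO replicates 1, 2, 3 and 4. The groups did not overlap within a run, but in run 3 KO replicate 4 and WT replicate 5 were nearly level. Without WT replicate 5 it was called (adjusted p = 0.0495).

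In the membrane arm, 1 of 8 tested proximal accessory subunits fell (Ndufa8, 12.5% called), with a median of 0.07. Of 10 distal ones 1 fell (Ndufb9, 10% called), with a median of -0.09, where 18.5% of all tested genes were called. Ndufb6, a distal subunit, had the lowest value of all subunits without a call (log2 fold change -0.46 ± 0.17 SE, adjusted p = 0.0765 by edgeR's quasi-likelihood test). Its levels were 18.3, 16.5, 13.4, 14.2 and 11.5 CPM in the 5 WT libraries in order of replicate number, against 12.1, 12.2, 8.14 and 9.68 CPM in KO replicates 1, 2, 3 and 4. Both KO libraries were below all WT libraries within each run. Ndufa1, a small subunit encoded on the X chromosome and needed for assembly, stood at 25.2, 11.98, 15.9, 19.3 and 15.2 CPM in the 5 WT libraries in order of replicate number, against 27.0, 15.6, 22.8 and 24.8 CPM in KO replicates 1, 2, 3 and 4. These overlapped widely in run 1, and its log2 fold change of 0.35 had a 95% interval of -0.08 to 0.78 (adjusted p = 0.248 by edgeR's quasi-likelihood test). Ndufb5, named after its values were seen, had a log2 fold change of 0.35 (adjusted p = 0.0550 by edgeR's quasi-likelihood test) and was called without WT replicate 4 (adjusted p = 0.0315).

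The symbol pattern also takes in a pair of genes whose place differs from the rest. Ndufab1 is the mitochondrial acyl carrier protein, which sits in both arms and serves fatty acid and lipoic acid synthesis. Its log2 fold change was 0.11 with a 95% interval of -0.27 to 0.49. Ndufa4 was named as a complex I subunit and is now assigned to complex IV. It stood at 11.5, 13.3, 14.7, 18.7 and 20.6 CPM in the 5 WT libraries in order of replicate number, against 18.4, 17.3, 27.6 and 21.7 CPM in KO replicates 1, 2, 3 and 4. Within each run its KO libraries were above its WT libraries, and it was not called (log2 fold change 0.38 ± 0.14 SE, adjusted p = 0.0776 by edgeR's quasi-likelihood test).

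**Figure D2:**
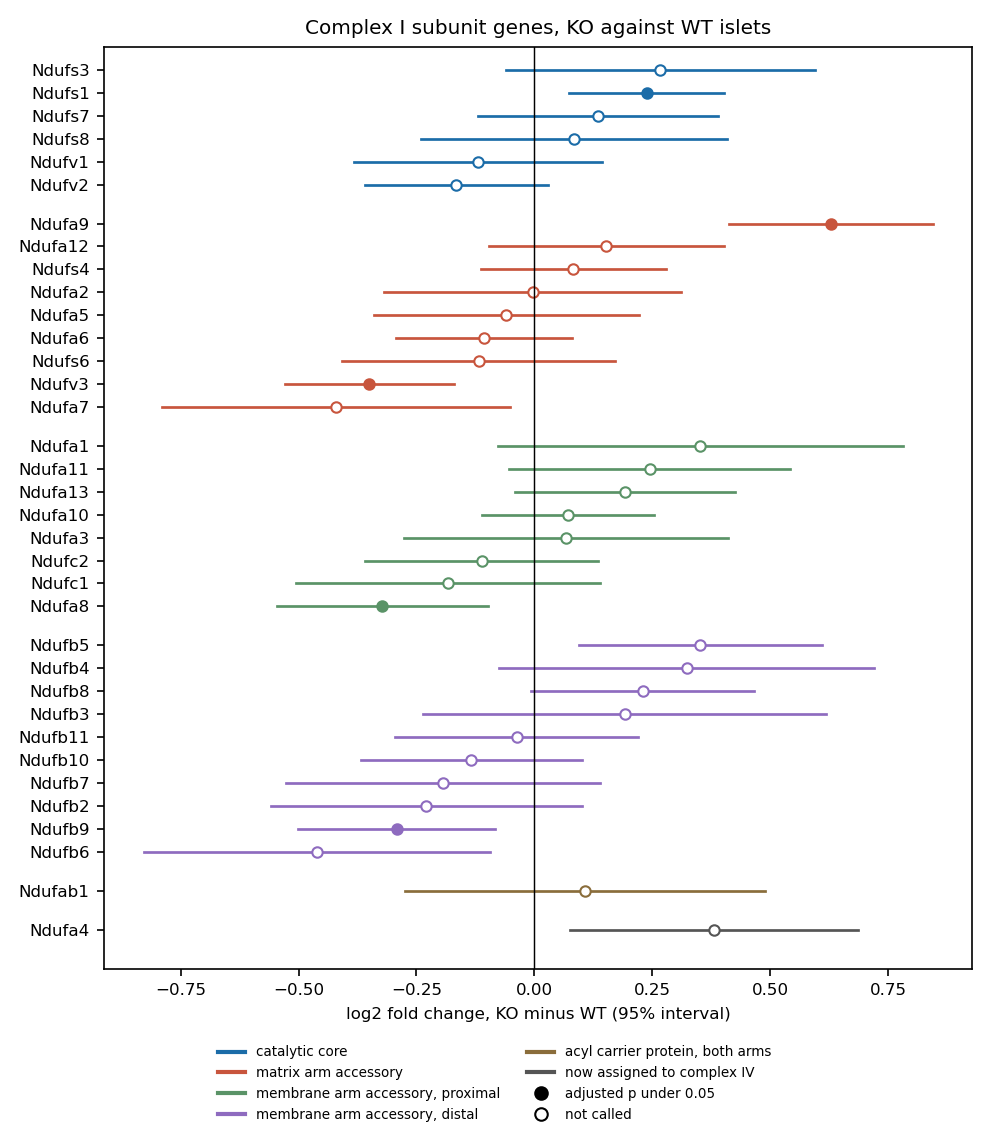
Log2 fold change (KO minus WT, run as a term) of 35 of the 36 tested subunits, each with its 95% interval, grouped by place in the complex, with filled points for an adjusted p under 0.05. The filled points lie on both sides of 0, from -0.35 for Ndufv3 to 0.63 for Ndufa9, and the intervals of most open points cross 0.

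The intervals show what sizes of change these 9 libraries leave for the subunits without a call. For 23 of the 31 the 95% interval lay within a 1.5-fold change in either direction. The other 8 were Ndufa1, Ndufa4, Ndufa7, Ndufb3, Ndufb4, Ndufb5, Ndufb6 and Ndufs3, and the widest bounds were -0.83 (Ndufb6) and 0.78 (Ndufa1) on the log2 scale. At an unadjusted p under 0.05 there were 9 subunits (25%), against 32.2% of all tested genes. For 9 subunits (25%) the genotypes did not overlap in either run and differed in the same direction, against 22.9% of all tested genes.

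Library by library, the subunits as a group overlapped between the genotypes. The median log2 ratio of a library's subunits to the WT mean of its run was between -0.18 (WT replicate 3) and 0.12 (WT replicate 1) in WT, and between -0.09 (KO replicate 2) and 0.14 (KO replicate 4) in KO. All KO medians lay among or just above the WT medians. The subunits' CPM summed to 1465 to 1905 in WT and 1564 to 1795 in KO.

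Whether the genotype difference depended on the run was asked with the interaction term. No subunit and none of the 12501 genes was called (edgeR's quasi-likelihood test), and DESeq2 called 1 gene and no subunit. At an unadjusted p under 0.05 edgeR gave 2 subunits and 744 genes (5.95%). The 2 were Ndufb3, a distal membrane-arm subunit with log2 fold changes of -0.27 in run 1 and 0.63 in run 3, and Ndufv1, with -0.37 and 0.13 (interaction adjusted p = 0.795 and 0.811). Within run 1 alone no subunit was called, against 6.05% of all genes, and within run 3 alone Ndufa9 was the 1 subunit called, against 8.17%. At an unadjusted p under 0.05, run 1 alone gave 5 subunits and 2881 genes.

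The sign of the difference was the same in both runs for 29 of 36 subunits (80.6%) and for 70% of all tested genes, and the 2 runs share no library. Across the 36 subunits Pearson's r between the runs was 0.69 and Spearman's rho 0.70, against 0.49 and 0.51 across all tested genes, where the genes of a library share its depth and scaling and are not independent. In the 7 subunits whose sign differed, the value was negative in run 1 and positive in run 3 in every case. The median of the 36 was -0.09 in run 1 and 0.11 in run 3, beside 0.01 and -0.01 for all tested genes.

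**Figure D3:**
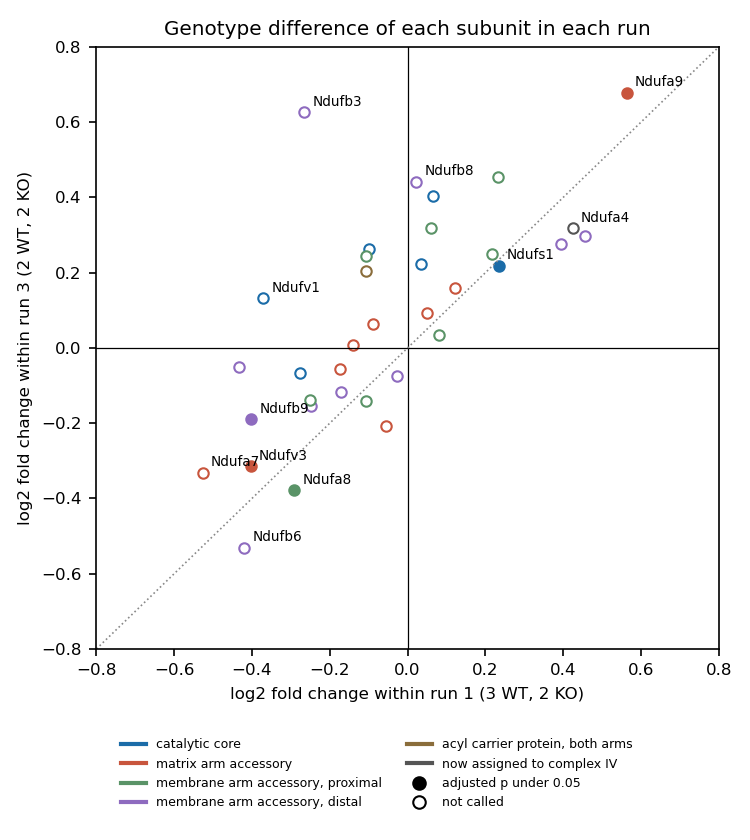
Log2 fold change of 35 of the 36 tested subunits within run 1 (x axis) and within run 3 (y axis), coloured by place in the complex, with filled points for subunits called over both runs and a dotted line of equal values. Ndufa9 lies at the upper right (0.56 and 0.68), the 3 subunits that fell lie at the lower left, and no point lies at the lower right.

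The runs themselves differed in subunit level, and for a few genes by far more than the genotypes did. Of the 36 tested subunits, 15 (41.7%) differed between the runs, against 31.4% of all tested genes: 4 were higher in run 3 (15.1% of all genes) and 11 lower (16.3% of all genes). The 11 that were lower had log2 differences of -0.77 to -0.22. The 4 that were higher were Ndufb4, Ndufab1, Ndufs3 and Ndufa4.

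Ndufb4, a distal membrane-arm subunit, was barely counted in run 1, with 1.47, 0.648 and 0.746 CPM for the WT libraries and 1.51 and 1.22 CPM for the KO libraries. Run 3 gave 51.2 and 33.5 CPM for WT replicates 4 and 5, against 52.7 and 52.2 CPM for KO replicates 3 and 4. The log2 difference between runs was 5.32 ± 0.22 (SE, adjusted p = 2.23e-11 by edgeR's quasi-likelihood test). Ndufab1 had 6.35, 4.53 and 4.48 CPM in the WT libraries of run 1, and 4.79 and 4.87 CPM in its KO libraries. The libraries of run 3 had 21.2 and 24.8 CPM (WT replicates 4 and 5) and 23.3 and 29.9 CPM (KO replicates 3 and 4). In Ndufb4 and Ndufab1 no library of run 1 came near a library of run 3, in either genotype. Ndufs3, a core subunit that helps to hold the ubiquinone module together, had means of 12.3 CPM in run 1 and 28.4 CPM in run 3 (log2 difference 1.17 ± 0.15 SE, adjusted p = 3.25e-05 by edgeR's quasi-likelihood test).

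Ndufs5, an intermembrane-side subunit of the membrane arm, was the 1 member not tested. It had 0 counts in all 9 libraries, yet its deposited FPKM values were 109, 92.2, 42.8 and 93.4 in WT replicates 4 and 5 and KO replicates 3 and 4. In run 1 it was listed at 21.1, 0.00185 and 9.76 FPKM for WT replicates 1, 2 and 3, and near 0 for both KO libraries. The count and FPKM tables thus differ for this gene, and no difference between groups is drawn from it. Its FPKM values are shown as deposited.

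Near-identical gene copies were listed for these genes after the run differences had been seen, so the list is a description. A copy was another annotated gene matching at 95% identity or more over at least 100 bases and at least 50% of the shorter transcript. Of the 37 subunit genes 9 had such a copy: Ndufab1 and Ndufb4 with 2 each, and Ndufa12, Ndufb11, Ndufb3, Ndufc1, Ndufs3, Ndufs5 and Ndufs6 with 1 each. The run difference ran from -0.37 to 5.32 (log2) in the 8 tested genes with a copy, and from -0.77 to 0.52 in the 28 without one. The sources used here do not state how reads that match several places were counted, and the part of the copies in the run differences was not tested. Levels of these 9 genes are uncertain for this reason, and so are those of the 16 subunit genes that share exon bases with another annotated gene, 14 of them on the opposite strand.

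Levels of different subunits were compared per transcript length, as FPKM in the 5 WT libraries. Mean FPKM spanned 28.7-fold, from 222 ± 73.4 (SD, n = 5) for Ndufv3 to 7.72 ± 1.498 for Ndufa11. Ndufv3 stood at 260, 307, 253, 147 and 142 FPKM in the 5 WT libraries, in order of replicate number, so its place at the top rested on run 1. Ndufb9 followed with 254, 266, 203, 208 and 165 FPKM, and Ndufa6, a matrix-arm LYR protein that binds the acyl carrier protein, with 224, 221, 180, 214 and 212 FPKM. Ndufb10 had a mean of 177 ± 44.8 FPKM and Ndufa5 a mean of 128 ± 30.9 FPKM. At the low end Ndufab1 stood at 6.70, 4.64, 5.68, 30.0 and 32.3 FPKM in the 5 WT libraries, in order of replicate number. Ndufa11, a membrane-arm subunit, stood at 9.49, 9.15, 7.13, 6.29 and 6.54 FPKM. These values do not match its counts, which had a WT mean of 22.5 CPM with coding transcripts of at most 918 bases. Ndufs3, with a lower WT mean of 17.0 CPM and a longer transcript of 1046 bases, had a higher mean of 17.4 FPKM. The bottom place of Ndufa11 and the 28.7-fold span are therefore uncertain.

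Most neighbours in this order could not be told apart. The gap between neighbours exceeded the SD of both only between Ndufb10 and Ndufa5 and between Ndufa5 and Ndufb7 (84.5 ± 28.6 FPKM). Mean WT FPKM was 32.5 for Ndufa9 and 26.9 for Ndufs1, which rose, and 222 for Ndufv3, 219 for Ndufb9 and 50.5 for Ndufa8, which fell. In the 2 WT libraries of run 3 alone Ndufa6 came first at 213 FPKM, and Ndufb4 had 133 FPKM against 54.5 over all 5.

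**Figure D4:**
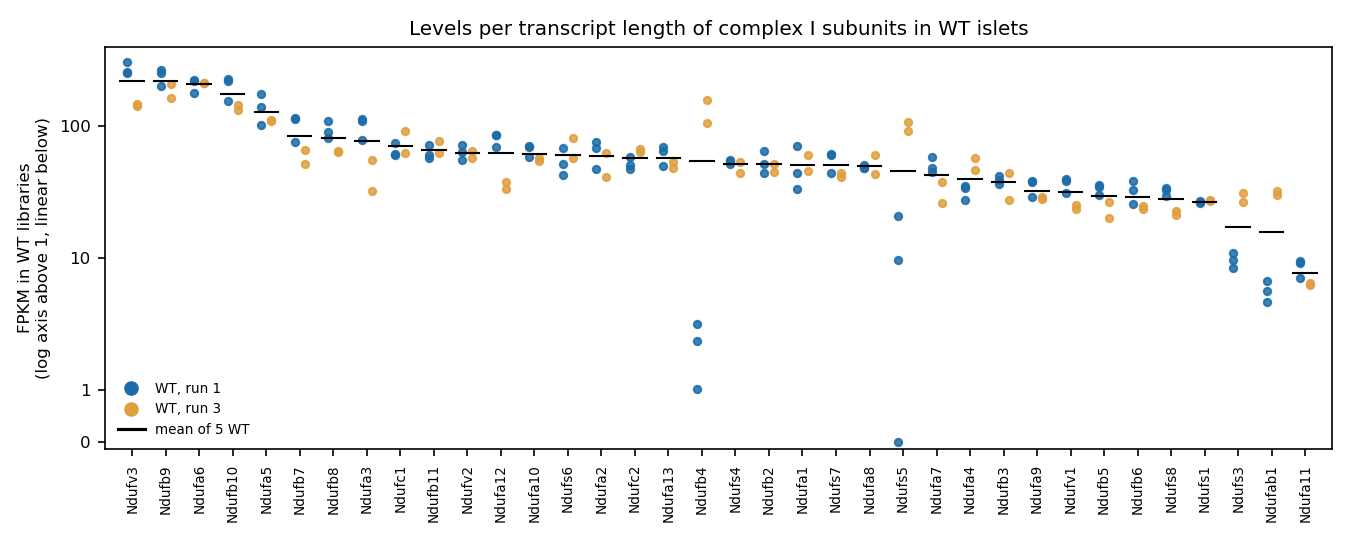
FPKM of 36 of the 37 subunit genes in the 5 WT libraries, in order of their mean (bar), with points coloured by run, on an axis that is logarithmic above 1 and linear below. The points of Ndufb4, Ndufs3 and Ndufab1, and the deposited values of Ndufs5, which had 0 counts, split furthest by run. Other genes split by less on this axis, such as Ndufv3 (253 to 307 FPKM in run 1, 142 and 147 FPKM in run 3). Ndufa12 did so too in FPKM (69.5 to 86.7 FPKM in run 1, 33.8 and 38.0 FPKM in run 3). Its WT counts overlapped between the runs (40.5, 31.7 and 41.0 CPM in run 1, 34.8 and 29.4 CPM in run 3). The points of genes such as Ndufa6 overlap.

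The controls of both Ogt genotypes were set against each other as background. No subunit and no gene differed between Ogt f/+ and Ogt f/f libraries by edgeR's quasi-likelihood test or DESeq2, with 1 subunit and 398 genes (3.18%) at an unadjusted p under 0.05 by edgeR. The log2 differences of the subunits ran from -0.32 (Ndufs6) to 0.59 (Ndufa1). Both Ogt f/+ libraries were in run 1, where WT replicate 2 was the single Ogt f/f control.

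Other genes of the pathway were taken from fixed lists. None of 18 tested complex I assembly factors was called by edgeR's quasi-likelihood test, against 18.5% of all tested genes. At an unadjusted p under 0.05 there were 3 of the 18, against 32.2% of all tested genes. The median log2 fold change of the 18 was -0.25, with 13 negative values. The lowest p among them was that of Ndufaf2, which binds a late assembly intermediate (log2 fold change -0.52, 95% interval -0.91 to -0.12, adjusted p = 0.0668 by edgeR's quasi-likelihood test). Of 39 tested nuclear subunits of complexes II to V, 4 rose and 1 fell (12.8% called, against 18.5% of all tested genes), with a median of 0.10. Cox4i1, a nuclear subunit of cytochrome c oxidase, rose by 0.49 ± 0.09 (SE) from a mean of 86.2 to 120.5 CPM. Cox5b, another subunit of that enzyme, rose by 0.55 ± 0.11, and Uqcrh, the hinge subunit of complex III, rose by 0.40 ± 0.09 on the log2 scale. The other 2 called, named after their values were seen, were Atp5a1, the alpha subunit of ATP synthase, which rose by 0.28 ± 0.07, and Cox6a2, the heart and muscle form of a cytochrome c oxidase subunit. Cox6a2 fell by 1.495 ± 0.47 on the log2 scale, from a mean of 12.2 to 3.73 CPM, the largest difference of the list (adjusted p = 0.0357 by edgeR's quasi-likelihood test).

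Mitochondrial ribosomal proteins, which make the mitochondrially encoded subunits, had 11 of 77 members higher and 2 lower (16.9% called, against 18.5% of all tested genes), with a median of 0.11. Mrpl39 rose by 1.17 ± 0.12 (SE), from 34.6 ± 7.36 CPM (SD, n = 5) in WT to 75.9 ± 3.70 CPM (n = 4) in KO, and Mrpl35 and Mrpl1 rose by 0.79 and 0.78 on the log2 scale. Among 12 regulators of mitochondrial gene expression 2 rose and 1 fell (25% called, against 18.5% of all tested genes). Nrf1, a transcription factor of respiratory chain genes, fell by 0.42 ± 0.09 on the log2 scale, from 65.4 ± 4.58 CPM to 48.4 ± 2.22 CPM. Gabpb1, a subunit of the ETS factor GABP, rose by 0.80 ± 0.18. Ppargc1a, a coactivator of mitochondrial biogenesis, rose by 1.41 ± 0.43 from a low level of 1.72 to 4.85 CPM (adjusted p = 0.0313 by edgeR's quasi-likelihood test). For Nrf1 and Gabpb1 the genotypes did not overlap in either run, which was not so for Ppargc1a. These comparisons share their libraries with the one on complex I, so the lists are given side by side, and whether they differ from the complex I subunits was not tested.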

How the data were processed

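RNA-seq of 9 islet libraries (5 WT, 4 KO, in 2 sequencing runs) was used. Per the labels' protocols, total RNA was made into stranded low-input libraries. The authors deposited whole-number read counts per gene symbol (24420 rows) and FPKM values (24347 rows). Bowtie2 2.2.4.0, Cuffdiff 2.2.1, FastQC, edgeR and mm10 are named, with no role, per the submitters' processing notes. Strand use and multiple matches in counting are not given in the sources used here. Among the symbols 27 were date-like and were left out.

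Counts as deposited were fitted with edgeR's quasi-likelihood method (edgeR 4.0.16, R 4.3.3), with TMM scaling, the default filter by genotype, a model of run and genotype, and Benjamini-Hochberg adjustment over 12501 genes at 0.05. CPM values use TMM-scaled library sizes. Intervals are 95% intervals of the fit. Replicates of a group differed by a chi-square of 3.76 to 65.6 per degree of freedom, so none is a repeat deposit. Alternatives used DESeq2 1.42.0, limma 3.58.1 (voom, and log2(FPKM + 1)) and those under the closing section. The script was tested on simulated data.

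The members, lists and place of each subunit were chosen with earlier results of these data known. Per-library values are given for called members, the 4 largest differences not called, the 2 highest and lowest by FPKM, Ndufab1 and Ndufa4, and from each other list up to 3 called genes of lowest p. Other members were named after their values were seen. Gene positions and copies are from GENCODE on GRCm38 (BLAST 2.17.0+). The single values of 1 member are not reported here, and it stays in the counts and medians.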

Additional observations from a re-analysis of the deposited data

Results flagged for a closer look

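In 2 of the 74 sets of libraries (each of the 37 subunits in WT and in KO), 1 library stood far from the rest. Chance alone passes the limit used in about 1 in 20 sets. The sets of Ndufs5 held only 0 counts and could not be flagged. Ndufa6 stood at 76.2 CPM in KO replicate 2, below the 90.05 to 92.7 CPM of the other KO libraries. Ndufa8 stood at 39.1 CPM in KO replicate 1, above the 31.4 to 32.6 CPM of the others, and without that library Ndufa8 kept its call.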

How the results depend on the processing

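No alternative reversed a called subunit. Subunits called higher numbered 1 in place of 2 without the run term, with DESeq2, with RLE size factors, with no filter, with a filter of 1 CPM in 4 libraries, with Ogt f/f controls alone, without the ribosomal RNA precursor Rn45s, with the acinar covariate, with log2(FPKM + 0.1), with log2(FPKM + 1) and no filter, in run 3 alone, and without WT replicates 2 and 5 or KO replicate 2 and WT replicate 2, and 0 in run 1 alone. Those called lower numbered 0 in place of 3 without the run term, with the acinar covariate, with log2(FPKM + 0.1), with FPKM and no filter, in either run alone and without KO replicate 2 and WT replicate 2, and 1 with log2(FPKM + 1) and without WT replicates 2 and 5. Over all tested genes, 2315 calls became 672 without the run term, 1542 with f/f controls, 1403 with the acinar covariate, 1375 with log2(FPKM + 0.1), 1254 with FPKM and no filter, 756 in run 1, 1021 in run 3, 1496 without WT replicates 2 and 5 and 1512 without KO replicate 2 and WT replicate 2. Leaving out each library in turn gave 1 to 2 subunits higher, 1 to 4 lower, a median of -0.04 to 0.09 and 1602 to 2333 genes. The median log2 fold change was -0.0943 in run 1 alone. Fits on 1 run or fewer libraries have fewer samples, and otherwise the cause was not tested. The interaction and the Ogt f/+ contrast called 0 subunits in all their alternatives, while with no filter they called 90 and 39 genes. No paired analysis was possible because the labels give no replicate numbers, and the numbers used here only name the libraries in the order listed. Counts of 2 to 6 per library limit Ndufb4 in run 1.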
